A study of Rattus norvegicus with 5 samples.

Results

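The 7 genes described here encode the main receptor and the main enzymes of the endocannabinoid system, and they were taken by name from the 32883 genes counted in every library. They are *Cnr1* (the CB1 receptor), *Dagla* and *Daglb* (the diacylglycerol lipases), *Mgll* (monoacylglycerol lipase), *Abhd6* (a second hydrolase), *Napepld* (a phospholipase D) and *Faah* (fatty acid amide hydrolase). Single-nucleus RNA sequencing (snRNA-seq) was performed on the ventral tegmental area (VTA) of 5 adult male Sprague-Dawley rats, with the punches of both hemispheres of a rat combined into 1 library. The labels give saline as the treatment of all 5 rats, and no treated group is present, so every comparison here is between cell classes of the same animals. Nuclei were isolated from frozen tissue, so the counts are of nuclear RNA.

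Endocannabinoids are lipid messengers that a neuron makes on demand and releases backwards across its synapses. They act on CB1, a Gi/o-coupled receptor of presynaptic terminals, and lower transmitter release. The diacylglycerol lipases make 2-arachidonoylglycerol (2-AG) from diacylglycerol, which Gq-coupled receptors and phospholipase C supply, and monoacylglycerol lipase and ABHD6 degrade it. Anandamide is made in part by NAPE-PLD and is degraded by FAAH. In the VTA this system is known for its control of the glutamate and GABA inputs of dopamine neurons and for its part in drug reward.

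Libraries held 10193355 to 88576210 unique molecular identifiers (UMIs, each standing for 1 captured RNA molecule), and 1813 to 9336 barcodes per rat passed the filters, with a median of 1606 to 3526 UMIs per barcode. Of these 22084 barcodes, 15805 nuclei fell in 8 named classes, and 3671 barcodes with a profile like that of empty droplets, most of them from rats 1 and 2, were left out. Among those left out was a cluster led by *Slc6a3* and *Th*, of 1255 barcodes before doublets were removed, 1115 of them from rat 2. Its profile had a correlation of 0.916 with that of empty droplets. In the 3671 barcodes together *Cnr1* stood at 0.441 UMIs per 10000 UMIs. The classes carried their defining markers. *Slc6a3* stood at 7.66 UMIs per 10000 UMIs in dopamine neurons, *Gad1* at 2.94 in GABA neurons, *Slc17a6* at 1.69 in glutamate neurons, *Aqp4* at 11.1 in astrocytes, *Pdgfra* at 9.87 in oligodendrocyte precursor cells (OPCs) and *Cx3cr1* at 7.86 in microglia, and *Flt1* led the vascular class. These genes named the classes and are no result. Rat 3 was the shallowest library and its nuclei mostly formed clusters of their own. A class entered for a rat with at least 20 nuclei, so dopamine neurons lack rat 1, OPCs, microglia and vascular nuclei lack rat 3, and n is 4 for these and 5 for the others. Free RNA, estimated from genes that a class should lack, made up 3.45% to 44.8% of the UMIs of a class in a rat. It was highest in the vascular class (29.8% to 41.8%) and in microglia (15.5% to 44.8%), and lowest in glutamate neurons (3.45% to 15.9%). Barcodes found in more than 1 library numbered 50, and leaving them out, an alternative chosen after seeing the data, changed none of 63 results.

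Levels are given as UMIs of a gene per 10000 UMIs of a class in a rat, which can be compared between classes for 1 gene but not between genes. The plot of levels by class shows all of them. Between neuron classes *Cnr1* was the member that passed a test. Tests were made with edgeR's quasi-likelihood test on UMIs summed per rat and class, with the rat as a block and Benjamini-Hochberg adjustment over 11942 genes. Between dopamine and GABA neurons 16.5% of all genes passed an adjusted p of 0.05, and 0 of the 7 did (0 of 7 also at an unadjusted p under 0.05, and 0 with DESeq2). Their log2 fold changes lay between -0.33 and 0.47, with standard errors of 0.14 to 0.28. Between dopamine and glutamate neurons 12.2% of all genes passed and 1 of the 7 did. Between GABA and glutamate neurons 4.61% passed and 1 of the 7 did. In both cases the gene was *Cnr1*.

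**Figure D1:**
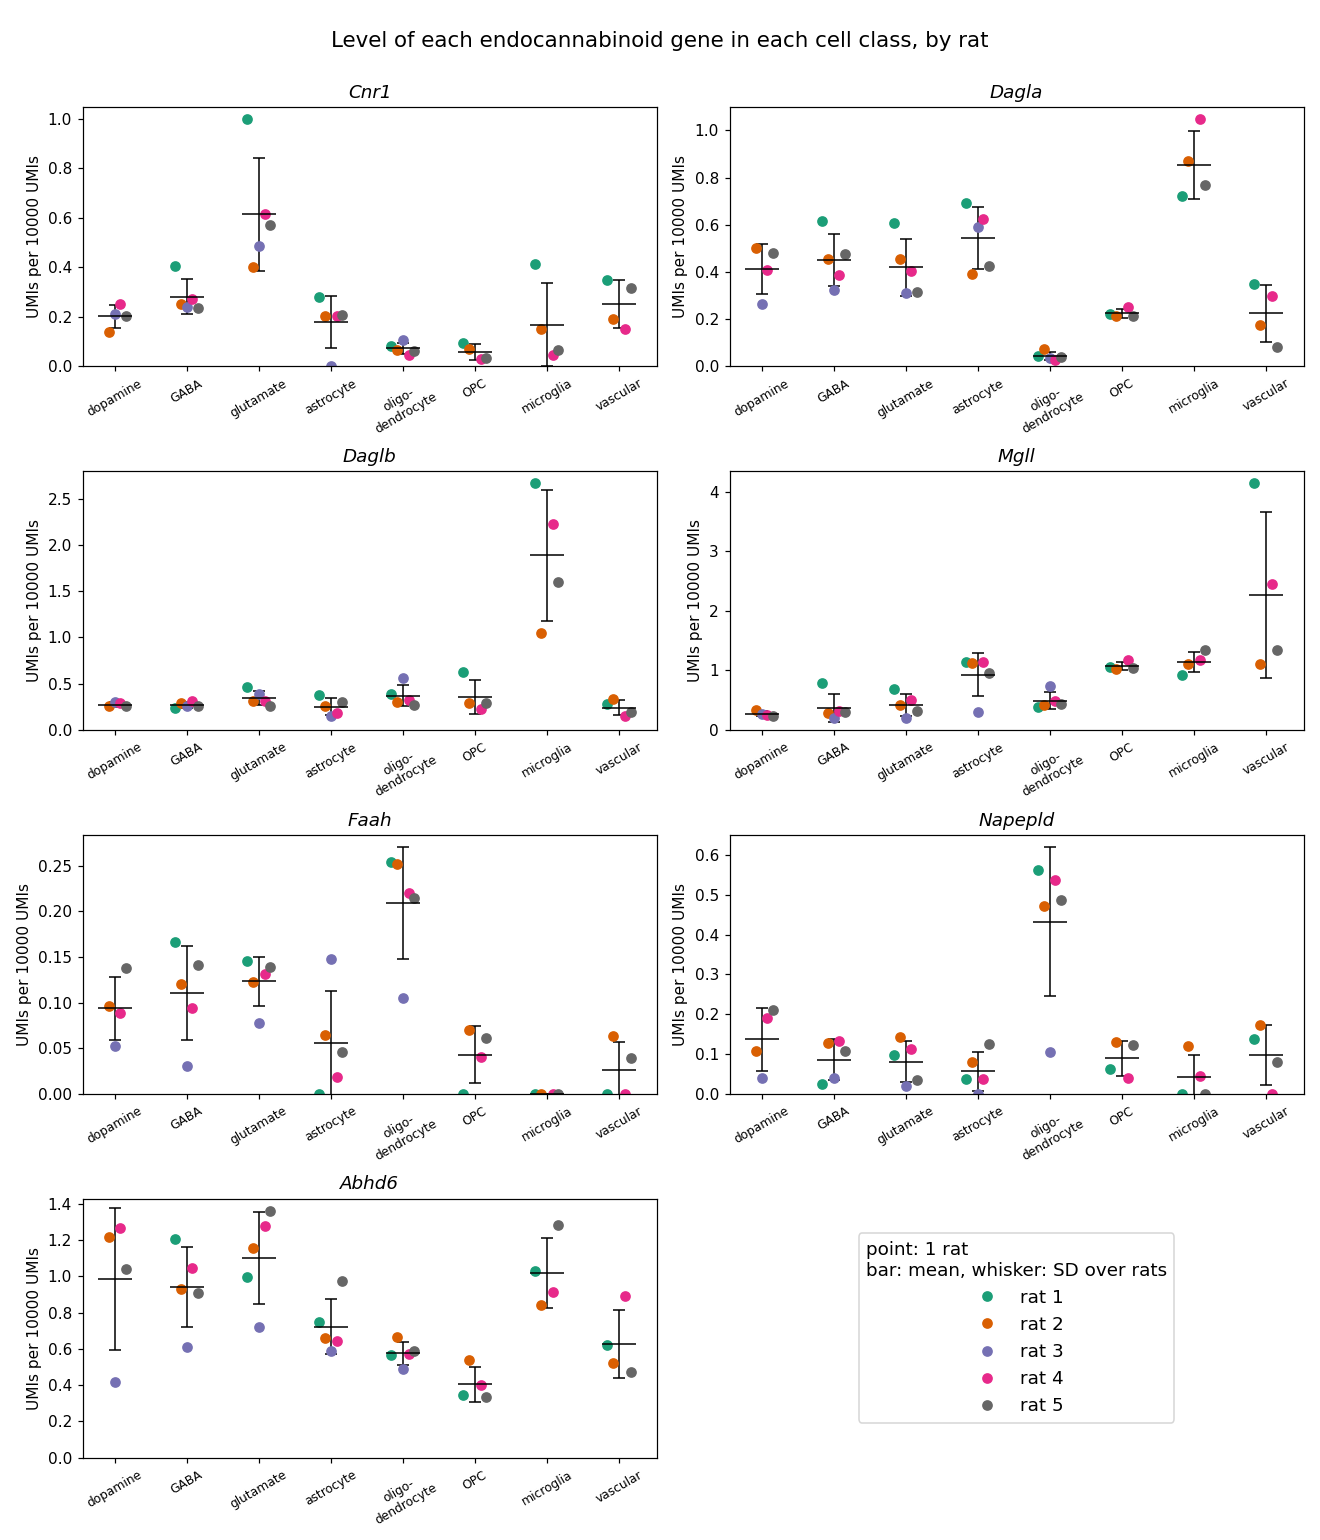
Level of each of the 7 genes (UMIs per 10000 UMIs) in 8 cell classes; each point is 1 rat, horizontal bars are means over rats and whiskers are SD, and axes start at 0. *Cnr1* stands highest in glutamate neurons (mean 0.613), *Dagla* and *Daglb* in microglia (0.852 and 1.89), *Mgll* in the vascular class (2.26), and *Faah* and *Napepld* in oligodendrocytes (0.209 and 0.432).

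Between neurons, taken as the mean of the 3 neuron classes, and glia the genes parted. Against astrocytes, where 61.6% of all genes passed, 3 of the 7 were higher in neurons (*Cnr1*, *Faah* and *Abhd6*) and 1 lower (*Mgll*). Against oligodendrocytes, where 74.1% passed, 3 were higher (*Cnr1*, *Dagla* and *Abhd6*) and 4 lower (*Daglb*, *Mgll*, *Faah* and *Napepld*). Against OPCs, where 46.2% passed, 4 were higher (*Cnr1*, *Dagla*, *Faah* and *Abhd6*) and 1 lower (*Mgll*). Against microglia, where 56.0% passed, 2 were higher (*Cnr1* and *Faah*) and 3 lower (*Dagla*, *Daglb* and *Mgll*). With shares this large over all genes, a count of members called says little, and the values below are given for their direction and size. The median log2 fold change of the 7 was 0.51, -0.38, 0.97 and 0.37 in the 4 comparisons, beside -0.0054, -0.055, -0.0014 and 0.13 for all genes. *Cnr1* was higher and *Mgll* lower in neurons in each of the 4.

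**Figure D2:**
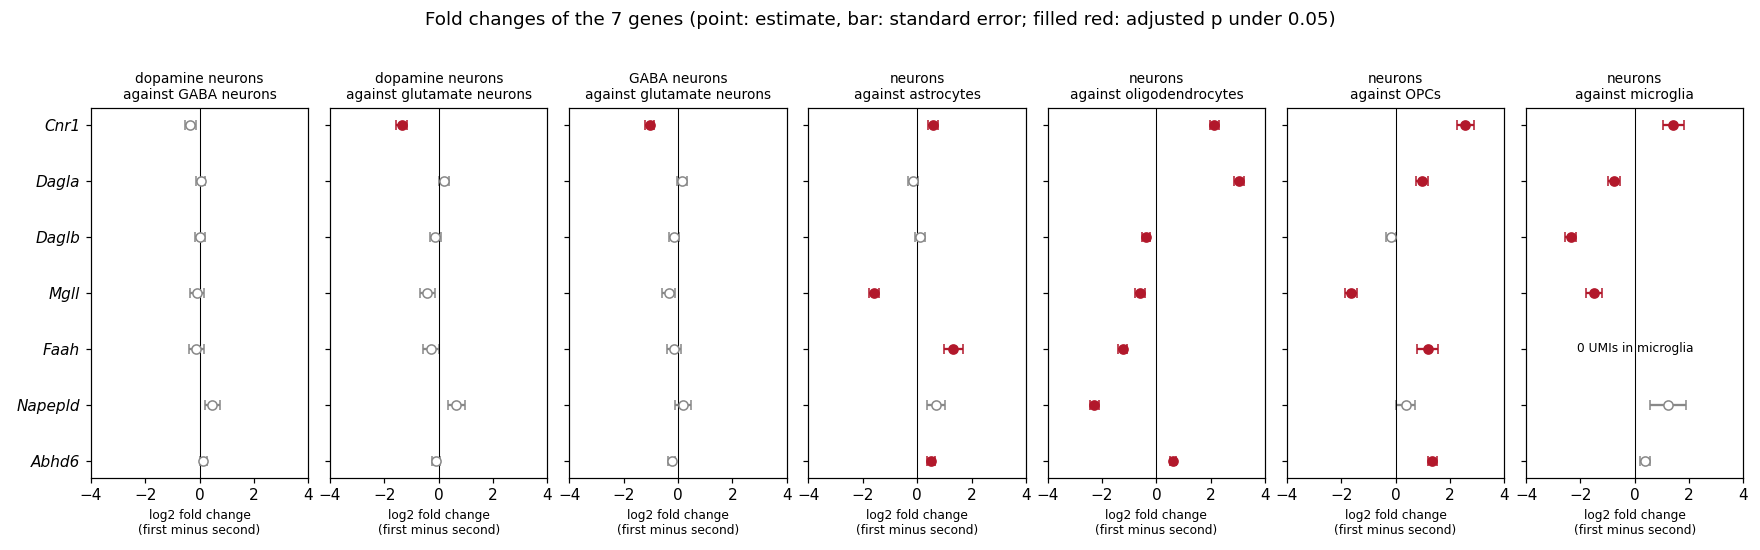
Log2 fold change of each gene in the 7 comparisons (first class minus second); points are edgeR estimates, bars are standard errors, and filled red points have an adjusted p under 0.05. Among neuron classes only *Cnr1* passed, at -1.37 and -1.03 against glutamate neurons; *Faah* against microglia is not drawn because microglia held 0 *Faah* UMIs.

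*Cnr1*, the receptor, was highest in glutamate neurons. Its levels there were 0.996, 0.398, 0.486, 0.614 and 0.570 UMIs per 10000 in rats 1 to 5. In GABA neurons they were 0.403, 0.249, 0.239, 0.272 and 0.233, and in dopamine neurons of rats 2 to 5 they were 0.138, 0.209, 0.252 and 0.203. Glutamate neurons were above GABA neurons in 5 of 5 rats and above dopamine neurons in 4 of 4, although the ranges overlapped slightly, since GABA neurons of rat 1 (0.403) lay above glutamate neurons of rat 2 (0.398). *Cnr1* was 2.58-fold lower in dopamine than in glutamate neurons (log2 fold change -1.37, standard error 0.20, edgeR adjusted p = 8.4e-07) and 2.05-fold lower in GABA than in glutamate neurons (-1.03, standard error 0.17, adjusted p = 2.0e-05). With nuclei assigned by their own markers the second difference missed the threshold (-0.76, adjusted p = 0.061, with adjusted p between 5.7e-07 and 0.061 over its alternatives). Dopamine neurons lay below GABA neurons in 4 of 4 rats, by a log2 fold change of -0.33 (standard error 0.20, adjusted p = 0.31) that did not pass.

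Among the other classes *Cnr1* was lowest in OPCs and oligodendrocytes. Oligodendrocytes held 0.105 UMIs per 10000 or less in every rat and OPCs 0.0938 or less, and neurons were above them by log2 fold changes of 2.13 (standard error 0.17, edgeR adjusted p = 8.4e-16) and 2.56 (standard error 0.31, adjusted p = 1.7e-09). Astrocytes stood at 0.280, 0.204, 0, 0.201 and 0.206 in rats 1 to 5, and rat 3, with 48 astrocytes, had no *Cnr1* UMI among them. Astrocytes lay above dopamine neurons in 2 of the 4 rats that had both. The difference between neurons and astrocytes was smaller, 0.57 (standard error 0.19, adjusted p = 0.0097). It missed the threshold with free RNA subtracted (0.61, adjusted p = 0.11), without rat 4 (0.48, adjusted p = 0.055) and with no rat block (0.62, adjusted p = 0.069), within a range of 0.0010 to 0.11 over all alternatives. The vascular class held 0.346, 0.189, 0.149 and 0.316 in rats 1, 2, 4 and 5, a range that overlapped those of GABA and dopamine neurons, and it entered no test. Free RNA alone would give 0.111 there. In oligodendrocytes, OPCs and microglia *Cnr1* stood at only 1.48, 1.35 and 1.82 times the level that free RNA would give. Those low levels, and the sizes of the differences from neurons, are uncertain for that reason. Microglia held only 11 *Cnr1* UMIs over 4 rats. Neurons were above them by 1.42 (standard error 0.38, adjusted p = 0.0014), and without rat 4 by 0.96 (adjusted p = 0.058, against 8.7e-05 to 0.058 over the alternatives).

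The share of nuclei with a *Cnr1* UMI was highest in glutamate neurons once depth was made equal. Thinned to 1000 UMIs per nucleus, 7.13% ± 4.88 (SD, n = 5) of glutamate nuclei had at least 1, beside 1.84% ± 1.05 of GABA nuclei, 1.32% ± 0.281 (n = 4) of dopamine nuclei and 0.508% ± 0.592 (n = 4) of OPCs. The share was 4.69% ± 3.82 (n = 4) in the vascular class and 1.497% ± 1.38 (n = 5) in astrocytes, so no order of the classes below glutamate neurons was read from it. As deposited, the shares were 29.8% ± 16.6, 14.4% ± 7.25, 12.6% ± 6.15 and 2.73% ± 2.75, at class medians that ranged over rats from 1550 to 10220 UMIs in glutamate neurons and from 2932 to 6283 in OPCs. The glutamate, GABA and dopamine classes together held most of the *Cnr1* UMIs of the named classes, with means of 32.7%, 31.3% and 10.9%. Rat 1, which has no dopamine class, counted as 0 in the last of these.

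*Dagla*, the lipase that makes most 2-AG in the adult brain, was at similar levels in the 3 neuron classes and in astrocytes, and near absent from oligodendrocytes. Dopamine neurons of rats 2 to 5 held 0.4996, 0.261, 0.409 and 0.478 UMIs per 10000. GABA neurons averaged 0.451 ± 0.110 (SD, n = 5), glutamate neurons 0.418 ± 0.122 and astrocytes 0.543 ± 0.131, and these ranges overlapped. Oligodendrocytes held 0.0417, 0.0707, 0.0348, 0.0273 and 0.0380 in rats 1 to 5. Every one of these lies below every neuron level. Neurons exceeded oligodendrocytes 8.25-fold (log2 fold change 3.04, standard error 0.18, edgeR adjusted p = 2.9e-20). The oligodendrocyte mean of 0.0425 was 0.806 times the level that free RNA alone would give, so *Dagla* in oligodendrocyte nuclei was not detectable above free RNA. OPCs lay between, at 0.219, 0.211, 0.252 and 0.213 in rats 1, 2, 4 and 5, with no overlap with oligodendrocytes, and neurons were above them by 0.97 (standard error 0.22, adjusted p = 2.6e-04).

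Microglia held the most *Dagla*, 0.720, 0.872, 1.05 and 0.770 UMIs per 10000 in rats 1, 2, 4 and 5, above astrocytes in 4 of 4 rats. Neurons were below microglia by a log2 fold change of -0.76 (standard error 0.22, edgeR adjusted p = 0.0038). By these levels they were lower in 4 of 4 rats, and after TMM scaling, the normalization of the fit, in 3 of 4. Microglia held 72 *Dagla* UMIs in all, and the difference was lost with nuclei assigned by their own markers (-0.025, adjusted p = 0.93, with adjusted p between 8.2e-04 and 0.93 over the alternatives). Under that assignment microglia were more numerous in every rat, 336 beside 166 in rat 2, and rat 3 entered with 151.

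*Daglb*, the second diacylglycerol lipase, was highest in microglia. They held 2.68, 1.05, 2.23 and 1.60 UMIs per 10000 in rats 1, 2, 4 and 5, and no other class in any rat reached the lowest of these values. Neurons were below microglia 5.15-fold (log2 fold change -2.37, standard error 0.19, edgeR adjusted p = 3.0e-15). With nuclei assigned by their own markers the difference shrank to -1.33 and still passed. The other 7 classes had means of 0.239 to 0.369 with overlapping ranges. Neurons and oligodendrocytes differed slightly, by -0.38 (standard error 0.13, adjusted p = 0.0078). DESeq2's size factors within edgeR moved the median of all genes in this comparison by 0.15 on the log2 scale, and *Daglb* then missed the threshold (-0.23, adjusted p = 0.10), as it did with DESeq2 (-0.24, adjusted p = 0.13) and with no rat block (-0.46, adjusted p = 0.057), and adjusted p lay between 8.6e-04 and 0.13 over the alternatives. With DESeq2 itself 58.3% of the genes called there were higher in neurons, beside 48.1% with edgeR. *Daglb* did not pass between neurons and astrocytes (0.099, standard error 0.18, adjusted p = 0.66) or OPCs (-0.17, standard error 0.20, adjusted p = 0.52).

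*Mgll*, whose product ends the action of most 2-AG, was lower in neurons than in every glial class tested. Astrocytes held 1.14, 1.12, 0.295, 1.14 and 0.952 UMIs per 10000 in rats 1 to 5, where the value of rat 3 comes from 2 UMIs. OPCs held 1.06, 1.02, 1.18 and 1.04 in rats 1, 2, 4 and 5, and microglia 0.926, 1.11, 1.18 and 1.35. Dopamine neurons of rats 2 to 5 held 0.334, 0.274, 0.252 and 0.236, and GABA and glutamate neurons averaged 0.373 ± 0.234 and 0.422 ± 0.184 (SD, n = 5). Neurons were below astrocytes by a log2 fold change of -1.59 (standard error 0.19, edgeR adjusted p = 5.1e-09), below OPCs by -1.64 (standard error 0.21, adjusted p = 2.5e-08) and below microglia by -1.51 (standard error 0.29, adjusted p = 2.4e-05). By the levels above neurons were below astrocytes in 5 of 5 rats, and after TMM scaling, the normalization of the fit, in 4 of 5. The difference from oligodendrocytes was smaller, -0.61 (standard error 0.18, adjusted p = 0.0023), and rat 1 went the other way. All 4 passed under every alternative run. With nuclei assigned by their own markers the difference from microglia shrank to -0.62 (edgeR adjusted p = 0.020).

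The vascular class held the highest *Mgll* levels and the widest spread, 4.16, 1.10, 2.46 and 1.34 UMIs per 10000 in rats 1, 2, 4 and 5. Rats 2 and 5 lay within the range of microglia, and the vascular class entered no test. The class also had the most free RNA, which alone would give 0.0901 on average.

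A cluster that was left out of the classes because it scored for both OPC and oligodendrocyte markers, led by *Rras2*, *Cemip2*, *Tcf7l2* and *Tns3*, held more *Mgll* than either class. Its 359 nuclei stood at 2.55, 1.45, 1.34, 2.35 and 1.94 UMIs per 10000 in rats 1 to 5, above the oligodendrocytes of the same rat in 5 of 5 rats and above its OPCs in 4 of 4. Of its barcodes 16.3% were marked as doublets and removed before these levels were computed. Its *Dagla* level was 0.0885, between those of oligodendrocytes and OPCs.

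*Abhd6*, a postsynaptic 2-AG hydrolase, was present in every class. Glutamate neurons held 0.996, 1.16, 0.719, 1.28 and 1.36 UMIs per 10000 in rats 1 to 5, GABA neurons 1.21, 0.933, 0.608, 1.05 and 0.911, and dopamine neurons of rats 2 to 5 held 1.22, 0.418, 1.27 and 1.04. Rat 3 was the lowest in all 3. Glial means ran from 0.405 in OPCs to 1.02 in microglia. Neurons were above OPCs by a log2 fold change of 1.35 (standard error 0.16, edgeR adjusted p = 1.0e-09), above oligodendrocytes by 0.61 (standard error 0.11, adjusted p = 5.3e-06) and above astrocytes by 0.51 (standard error 0.13, adjusted p = 9.2e-04). The last of these missed the threshold with no rat block (0.47, adjusted p = 0.051, with adjusted p between 4.9e-05 and 0.051 over the alternatives). The difference from microglia did not pass (0.37, standard error 0.18, adjusted p = 0.084). In the comparisons with astrocytes, oligodendrocytes and OPCs *Abhd6* was thus higher in neurons and *Mgll* lower, and the difference between these hydrolases was not itself tested.

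*Napepld*, which makes anandamide, was highest in oligodendrocytes. They held 0.561, 0.472, 0.105, 0.538 and 0.486 UMIs per 10000 in rats 1 to 5, with rat 3 resting on 3 UMIs. Dopamine neurons of rats 2 to 5 held 0.108, 0.0392, 0.191 and 0.210, and no class mean other than that of oligodendrocytes exceeded 0.137. Oligodendrocytes were above dopamine neurons in 4 of 4 rats. Neurons were below oligodendrocytes 4.89-fold (log2 fold change -2.29, standard error 0.17, edgeR adjusted p = 9.6e-17). No other comparison of *Napepld* passed. Dopamine against GABA neurons gave 0.47 (standard error 0.28, adjusted p = 0.32) and dopamine against glutamate neurons 0.64 (standard error 0.32, adjusted p = 0.22), and without rat 2 the latter was 1.18 and passed (adjusted p = 0.034, with adjusted p up to 0.81 over the alternatives). Without rat 2 the difference from microglia was 2.74 and passed as well (adjusted p = 0.031, beside 1.23 and 0.11 with every rat, and up to 0.36 over the alternatives). Microglia held 5 UMIs in all.

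*Faah*, which ends the action of anandamide, was highest in oligodendrocytes as well, with 0.254, 0.252, 0.105, 0.220 and 0.215 UMIs per 10000 in rats 1 to 5. Glutamate neurons averaged 0.124 ± 0.0270 (SD, n = 5), GABA neurons 0.111 ± 0.0519 and dopamine neurons 0.0936 ± 0.0350 (n = 4), with overlapping ranges. Neurons were below oligodendrocytes by a log2 fold change of -1.24 (standard error 0.17, edgeR adjusted p = 1.6e-08), in 5 of 5 rats. They were above astrocytes by 1.33 (standard error 0.34, adjusted p = 7.1e-04, in 4 of 5 rats) and above OPCs by 1.17 (standard error 0.38, adjusted p = 0.0099). Astrocytes and OPCs held only 20 and 14 *Faah* UMIs, 1.62 and 1.26 times what free RNA alone would give. The difference from OPCs was gone with nuclei assigned by their own markers (0.0045, adjusted p = 0.99), where rat 3 added 179 OPCs (2 by clusters). It kept its size but missed the threshold without rat 5 (1.18, adjusted p = 0.053) and with no rat block (1.11, adjusted p = 0.063), within a range of 5.8e-04 to 0.99 over the alternatives.

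Microglia held 0 *Faah* UMIs of 814796 in 368 nuclei of 4 rats. A count of 0 allows up to 3 UMIs over the group, which is 0.0368 per 10000, or 0.815% of nuclei with a UMI. Against that limit *Faah* was at least 2.97-fold higher in neurons and at least 5.68-fold higher in oligodendrocytes. These limits cover counting error only. Free RNA alone would have given 0.0705 per 10000 in microglia, above what was found. With nuclei assigned by their own markers the difference between neurons and microglia was gone (0.057, edgeR adjusted p = 0.91, with adjusted p from 6.0e-05 over the alternatives). Microglia were more numerous in every rat under that assignment, as given for *Dagla*.

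Oligodendrocytes, the most numerous class with 8706 nuclei, held on average the larger part of the UMIs of both anandamide enzymes among the named classes, 69.3% ± 26.4 (SD, n = 5 rats) of *Napepld* and 58.6% ± 25.01 of *Faah*. The lowest shares were in rat 3, 25% of *Napepld*, resting on 3 UMIs, and 18.8% of *Faah*. Oligodendrocytes were 41.4% of all barcodes left after doublets were removed, and only 9.37% of those of rat 3. These shares of UMIs thus follow the size and depth of a class as well as its level. Across the 36 sums of UMIs by rat and class, the log2 levels of *Faah* and *Napepld* had a Pearson r of 0.60, *Dagla* and *Napepld* one of -0.57 and *Mgll* and *Faah* one of -0.63. These are descriptions over sums that share rats, libraries and depth.

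The measured levels set beside those of free RNA show where a low level could not be read. Of 56 levels (7 genes in 8 classes), 45 were at least 2 times the level that free RNA would give, and 3 were below it. Those 3 were *Dagla* in oligodendrocytes and *Faah* in microglia and in the vascular class. For *Faah*, 0 of 4 rats lay above the free RNA level in either class. A measured level includes its free RNA, so the estimate is not exact, and the ratios given here are approximate. Between 1 and 2 times the free RNA level were *Cnr1* in oligodendrocytes (1.48), OPCs (1.35) and microglia (1.82) and *Faah* in astrocytes (1.62) and OPCs (1.26). So were *Napepld* in microglia (1.05) and the vascular class (1.83), and *Dagla* in the vascular class (1.82). In empty droplets *Cnr1* stood at 0.352 ± 0.163 UMIs per 10000 (SD, n = 5), above its mean in every class but glutamate neurons. *Faah* stood at 0.210 ± 0.0913 there, above its mean in every class, oligodendrocytes (0.209) included. The part of free RNA in the other glial levels was not tested beyond subtracting it, which raised the log2 fold change between neurons and oligodendrocytes to 3.85 for *Cnr1* and to 9.06 for *Dagla*. It raised the difference between neurons and OPCs to 4.48 for *Cnr1* and to 2.55 for *Faah*, that between neurons and microglia to 2.54 for *Cnr1*, and that between neurons and astrocytes to 3.82 for *Faah*. Subtracted counts were set to no less than 0. *Dagla* in oligodendrocytes, below the free RNA level before, was left at or near 0, so 9.06 gives a direction and no size. The values for OPCs, microglia and astrocytes rest on what was left of 14, 14, 11 and 20 UMIs, in the order named. They give no sizes either.

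**Figure D3:**
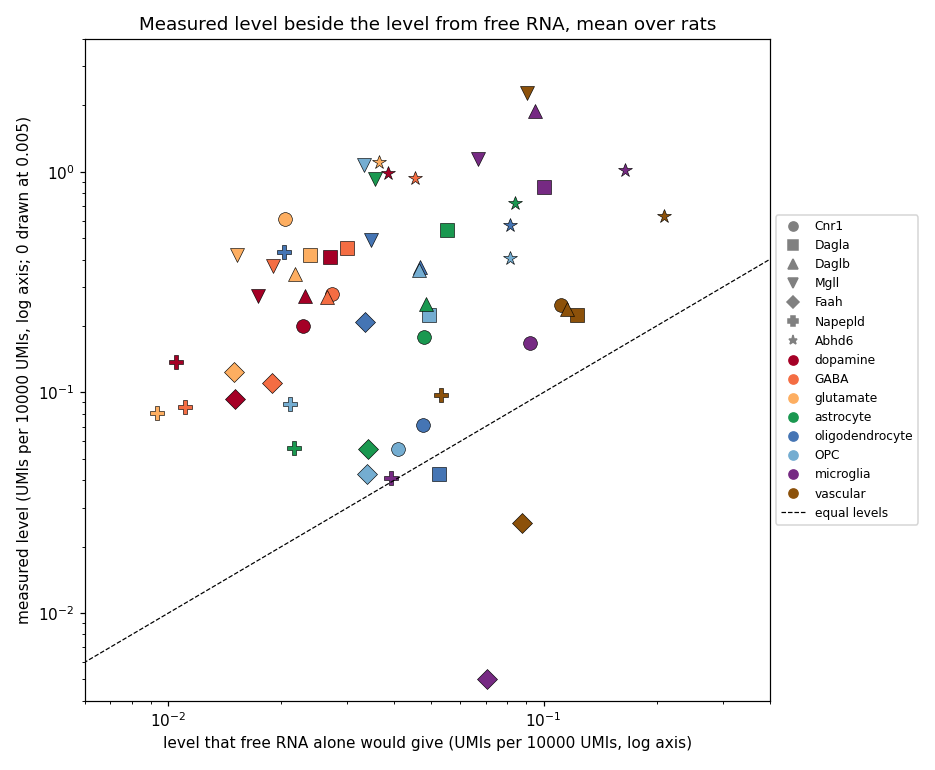
Mean level of each gene in each class (vertical, UMIs per 10000 UMIs, log axis) against the level that free RNA alone would give there (horizontal, same unit, log axis), with shapes for genes and colors for classes. Most points lie far above the dashed line of equal levels, and *Dagla* in oligodendrocytes and *Faah* in microglia (0, drawn at 0.005) and vascular nuclei lie below it.

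Neurons of the 3 named classes fell into 30 sub-clusters, formed from variable genes that excluded the 7 members and the pathway list. Of these, 12 held at least 20 nuclei in 2 or more rats, and these are described in full. *Cnr1* varied widely among the 18 GABA sub-clusters, of which 6 are among the 12. The sub-cluster led by *Sox6*, *Corin* and *Glis3* had 0 *Cnr1* UMIs of 1344270 in 189 nuclei of rats 2, 4 and 5. The limit set by a count of 0 is 0.0223 UMIs per 10000, or 1.59% of nuclei with a UMI. This sub-cluster was the least marked as GABA, with *Gad1*, *Gad2* and *Slc32a1* summing to 2.37 UMIs per 10000 against 5.11 to 13.5 in the other GABA sub-clusters, and its OPC markers lay on average 1.30 on the log2 scale above the median neuron sub-cluster. *Sox6*, which leads this sub-cluster, is itself 1 of those OPC markers. The part of the weak GABA marking or of the OPC markers in the levels of this sub-cluster was not tested. The sub-cluster led by *Nox4*, *Meis2*, *Syt6* and *Egfr* had 0.0309, 0.0364 and 0 in rats 2, 4 and 5. The other 4 GABA sub-clusters found in 2 or more rats had means of 0.392 to 0.697, and the lowest value of any rat in them was 0.225. The highest of the 4, led by *Calcr*, *Tafa4*, *Npnt* and *Alk*, held 0.452, 0.852 and 0.787 in rats 2, 4 and 5, within the range of glutamate neurons. The 12 GABA sub-clusters with 20 nuclei in 1 rat only held 0 to 0.360 in that rat and filled the range between. Among them, the one led by *Eya1* and *Pde3a* held 0.0258, the one led by *Pax5* 0.0818, the one led by *Pax3* and *Ppil1* 0.194 and the one led by *Itga6* and *Ikzf1* 0.208.

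The 3 glutamate sub-clusters found in 2 or more rats held *Cnr1*. Means were 0.567 in the one led by *Pdzrn3*, *Ano5* and *Lmx1a*, 0.608 in the one led by *Adgrv1* and *Colec12*, and 0.871 in the one led by *Angpt1*, *Cacna2d1* and *Bdnf*. The other 5 glutamate sub-clusters had 20 nuclei in 1 rat each, so no spread can be given, and they were not alike. The one led by *Slc17a8* and *Egflam* held 0.355 in rat 2, and the ones led by *Slc17a7* and *Igfbp5* and by *Lmx1a* and *Slc26a7* held 0.509 each, in rats 2 and 3. One led by *Ttc29* and *Stk32a* held 0.0850 in rat 2, with 7 UMIs in its 145 nuclei of all rats, and another led by the same pair had 0 UMIs of 77942 in 49 nuclei, which allows up to 0.385. The 3 dopamine sub-clusters found in 2 or more rats lay below the first 3 of these, and the fourth, led by *Satb1* and *Sv2c*, held 0.209 in rat 3. Of the 3, the one led by *Tmem207* and *Slc6a3* held 0.0984, 0.161 and 0.155 in rats 2, 4 and 5, the one led by *Col24a1*, *Tmem255a* and *Drd2* held 0.187, 0.334 and 0.203, and the *Aldh1a1* sub-cluster held 0.210 and 0.342 in rats 2 and 5.

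Among the 12 sub-clusters *Mgll* ran from a mean of 0.0881 in the *Sox6* GABA sub-cluster to 0.642 in the *Calcr* GABA sub-cluster, and it was at 0.0944 in the *Adgrv1* glutamate sub-cluster. *Dagla* was lowest in the same *Sox6* sub-cluster (0.189) and highest in the *Angpt1* glutamate sub-cluster (0.719). *Abhd6* was lowest in the *Sox6* sub-cluster too (0.756) and reached 1.36 in the *Pdzrn3* glutamate sub-cluster. *Daglb* ran from 0.224 to 0.456, *Faah* from 0.0541 to 0.174 and *Napepld* from 0.0873 to 0.194. Of the 12, the 3 dopamine sub-clusters held the 3 highest *Napepld* means, 0.151, 0.178 and 0.194, from 34, 39 and 15 UMIs. The highest GABA mean was close behind the first of these, at 0.149. The order of the classes did not extend to the sub-clusters of 1 rat. There the fourth dopamine sub-cluster, led by *Satb1* and *Sv2c*, held 0.0392 in rat 3, and a GABA sub-cluster led by *Myo5b* and *Ccdc141* held 0.197 in rat 2. These sub-clusters were not tested against each other.

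**Figure D4:**
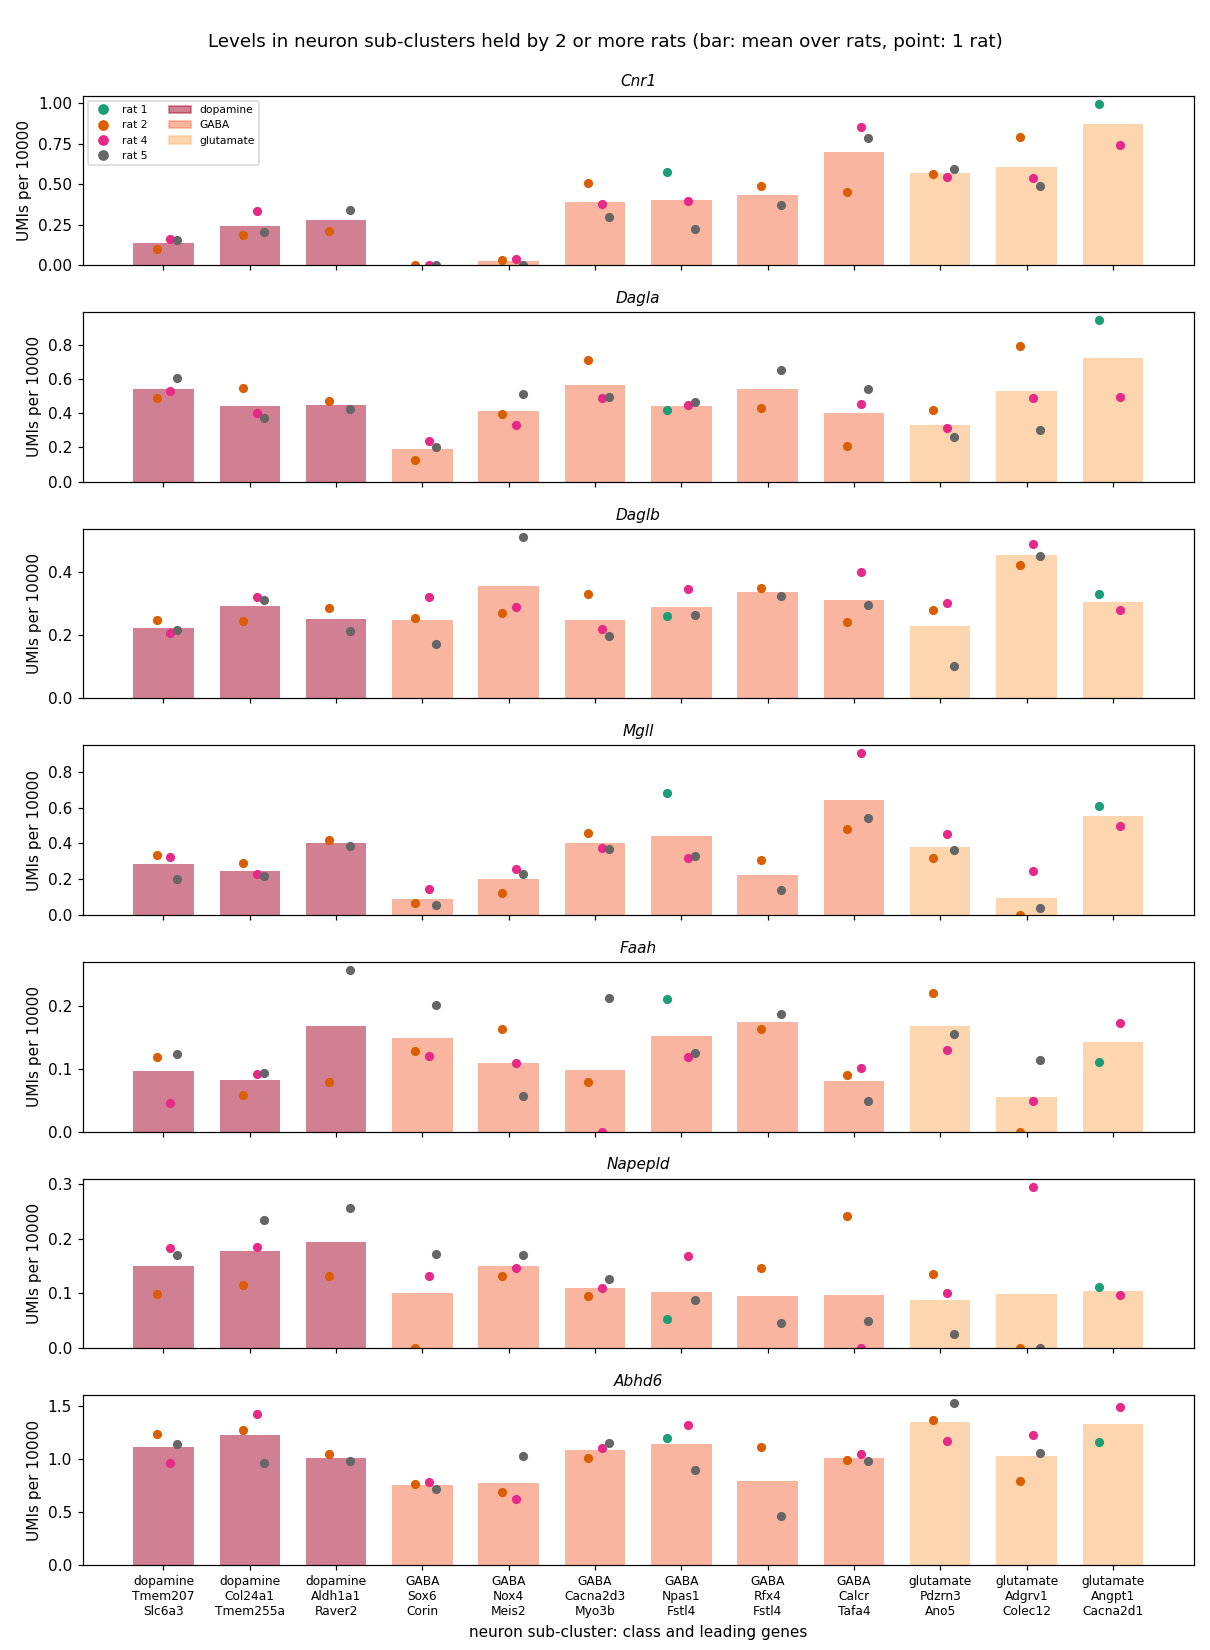
Level of each gene (UMIs per 10000 UMIs) in the 12 neuron sub-clusters with at least 20 nuclei in 2 or more rats, ordered within a class by *Cnr1*; bars are means over rats and points are rats, colored by class and rat. In the top row the *Sox6* and *Nox4* GABA sub-clusters stand at 0 and 0.0224, and the other 4 GABA sub-clusters drawn at 0.392 or more.

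A cluster of serotonin neurons (*Tph2*, *Slc6a4*), 111 nuclei left out of the 3 neuron classes, held 1.18 *Mgll* UMIs per 10000 and 0.142 of *Cnr1*. Only rat 3 had 20 nuclei in it, at 0.780 for *Mgll*, so no spread over rats can be given.

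Of a list of 32 further genes of the pathway, all were in the files and 23 passed the filter on low counts. Dopamine against GABA neurons gave 5 higher and 3 lower of the 23 (16.5% of all genes), dopamine against glutamate neurons 5 higher and 1 lower (12.2%), and GABA against glutamate neurons 4 higher and 0 lower (4.61%). The list's median log2 fold changes there were 0.087, 0.23 and 0.096, beside -0.022, 0.0062 and 0.02 for all genes. The metabotropic glutamate receptor *Grm5*, which drives 2-AG synthesis through Gq, was at 10.1 UMIs per 10000 in GABA, 7.004 in glutamate and 2.59 in dopamine neurons. It was lower in dopamine than in GABA neurons by a log2 fold change of -1.84 (standard error 0.18, edgeR adjusted p = 4.8e-11) and lower than in glutamate neurons by -1.21 (standard error 0.18, adjusted p = 1.9e-06). GABA neurons were above glutamate neurons by 0.63 (standard error 0.16, adjusted p = 0.012). *Gnai1*, a Gi subunit of the kind that CB1 couples to, was higher in dopamine than in GABA neurons by 1.35 (standard error 0.21, adjusted p = 5.2e-06) and than in glutamate neurons by 1.47 (standard error 0.22, adjusted p = 4.1e-06). *Plcb4*, a phospholipase C, was higher in dopamine than in glutamate neurons by 1.15 (standard error 0.15, adjusted p = 3.5e-08). *Fabp5*, an intracellular carrier of endocannabinoids, was higher in GABA than in glutamate neurons by 1.54 (standard error 0.20, adjusted p = 2.4e-07).

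Against glia the list gave 8 higher and 7 lower in neurons for astrocytes, 11 and 8 for oligodendrocytes, 10 and 5 for OPCs, and 10 and 10 for microglia, where 61.6%, 74.1%, 46.2% and 56.0% of all genes passed. The list's median log2 fold changes were 0.064, 0.24, 0.42 and -0.23, beside -0.0054, -0.055, -0.0014 and 0.13 for all genes. *Grm5* was higher in neurons than in astrocytes by a log2 fold change of 2.53 (standard error 0.18, edgeR adjusted p = 6.5e-17) and than in oligodendrocytes by 4.05 (standard error 0.18, adjusted p = 2.7e-24). In OPCs it was at 8.40 UMIs per 10000, below GABA neurons (10.1) and above glutamate (7.004) and dopamine neurons (2.59). The mean of the 3 neuron classes was below OPCs by -0.48 (standard error 0.15, edgeR adjusted p = 0.0067), in 3 of 4 rats after TMM scaling. *Pla2g4e*, a calcium-dependent enzyme that makes the precursors of anandamide, was higher in neurons than in astrocytes by 3.096 (standard error 0.47, adjusted p = 1.6e-07) and than in OPCs by 4.64 (standard error 0.68, adjusted p = 1.9e-07). Its levels were low, 0.131 to 0.269 UMIs per 10000 in the neuron classes, 0.0189 in astrocytes and 0.00761 ± 0.0152 (SD, n = 4) in OPCs. The sizes of these differences thus rest on few glial UMIs. *Plaat3*, a phospholipase and acyltransferase, went the other way, at 2.38 UMIs per 10000 in oligodendrocytes and 1.02 in astrocytes, with neurons lower by -4.76 (standard error 0.21, adjusted p = 4.5e-20) and -3.12 (standard error 0.26, adjusted p = 3.3e-12). *Plcb1*, another phospholipase C, was higher in neurons than in oligodendrocytes by 4.47 (standard error 0.28, adjusted p = 9.1e-16) but lower than in astrocytes by -1.63 (standard error 0.19, adjusted p = 4.4e-09). In neurons the carrier *Fabp7* was below its level in OPCs by -2.69 (standard error 0.26, adjusted p = 1.4e-11).

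*Cnr2*, the CB2 receptor, stood at 0.196 ± 0.0161 UMIs per 10000 (SD, n = 4) in microglia and at 0.00586 or less in the other classes. Neurons were below microglia by a log2 fold change of -5.73 for *Cnr2* (standard error 0.65, edgeR adjusted p = 3.6e-10) and of -5.99 for *Plcb2* (standard error 0.57, adjusted p = 3.7e-12), and above them by 6.14 for *Grm5* (standard error 0.35, adjusted p = 3.3e-20). *Abhd12*, another 2-AG hydrolase, stood at 7.25 in microglia and at no more than 2.001 in the other classes, with neurons below microglia by -2.24 (standard error 0.11, adjusted p = 1.2e-22). *Gpr55* had 0 UMIs in every class.

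**Figure D5:**
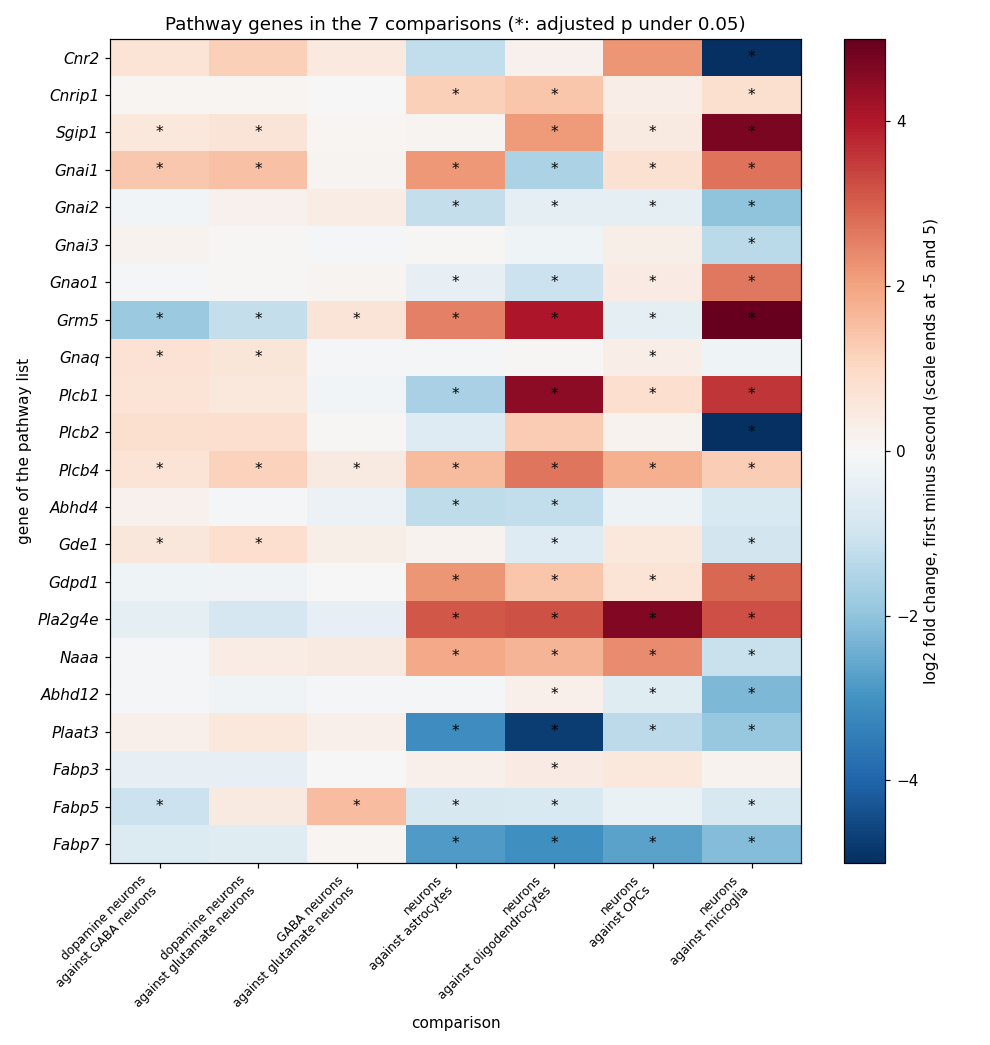
Log2 fold changes (color, first class minus second, scale ending at -5 and 5) of 22 of the 23 tested genes of the pathway list in the 7 comparisons; asterisks mark an edgeR adjusted p under 0.05. *Grm5* is lower in dopamine than in GABA neurons (-1.84), and *Cnr2* and *Plcb2* are far lower in neurons than in microglia (-5.73 and -5.99).

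The genes most like each member were found by Pearson's r of log2 CPM over the 36 sums, among 11935 genes, as a description with no test. *Cnr1* was closest to *Abcb9* (r = 0.86), *P4ha2* (0.78) and LOC100911769 (0.78). *Dagla* was closest to *Inpp4a* (0.91), *Ankrd6* (0.89) and *Sema4a* (0.88), and *Daglb* to *Depdc5* (0.87), *Ptafr* (0.86) and *Cndp1* (0.85). For *Mgll* they were *Ifih1* (0.85), *Tnfrsf1a* (0.83) and *Golim4* (0.83), and for *Abhd6* *Ssh3* (0.76), *Mfsd4a* (0.76) and *Kif3b* (0.76). For *Faah* they were *Srcin1* (0.86), *Dlg2* (0.86) and RGD1563349 (0.85), and for *Napepld* *Adpgk* (0.83), *Sh3glb2* (0.80) and *Pex11g* (0.80).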

How the data were processed

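Matrices of UMI counts, unfiltered, were deposited by the authors from 10x Genomics libraries. The submitters' processing notes name Cell Ranger 8.0.1 and the file headers Cell Ranger 4, and the genome build is not given in the sources used here. Barcodes with at least 1000 UMIs, 201 or more but under 5000 genes and under 5% mitochondrial UMIs were kept. Scrublet's own threshold marked only 18, so the highest scores were removed at 0.8% per 1000 barcodes (1068). Clusters (scanpy 1.11.5, leidenalg 0.10.2) were named by marker lists, with thresholds for leaving clusters out set after the clusters were seen. By their own markers 68.28% of nuclei fell in the same class. That assignment also enlarged microglia and OPCs in every rat, in rat 2 from 166 to 336 and from 326 to 503 nuclei. Rat 3 then entered both classes, with 151 and 179 nuclei. UMIs summed per rat and class were tested with edgeR 4.0.16 (quasi-likelihood, TMM, rat as block), with DESeq2 1.42.0 as an alternative. Standard errors are the log2 fold change over the square root of F. The fit was tested on simulated data. Sums of the same animal pair by design, and their deviations from class means had a median r of 0.292 (0.0302 to 0.813, 115 pairs). Free RNA was profiled in droplets under 100 UMIs. The text names the 7 members, per comparison up to 3 pathway genes with the largest change shared by every rat, and the 3 genes most like each member. A pathway gene that the rule names is not reported here. *Abhd12*, *Gpr55*, *Grm5* against astrocytes, oligodendrocytes and OPCs and the clusters left out of the classes were chosen after their values were seen. The members and lists were chosen with earlier results of these data known.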

Additional observations from a re-analysis of the deposited data

Results flagged for a closer look

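In 8 of 55 groups of 4 or 5 rats (1 gene in 1 class), 1 rat lay past Dixon's 95% critical value, which chance passes in about 5% of groups. In 5 of the 8 it was rat 3, the shallowest library. Its astrocytes had *Cnr1* at 0 (the others 0.201 to 0.280) and *Mgll* at 0.295 (0.952 to 1.14), in UMIs per 10000. Its oligodendrocytes had *Mgll* at 0.732 (0.391 to 0.480), *Faah* at 0.105 (0.215 to 0.254) and *Napepld* at 0.105 (0.472 to 0.561). In the other 3 it was rat 1, with *Cnr1* at 0.403 (0.233 to 0.272) and *Mgll* at 0.783 (0.192 to 0.314) in GABA neurons and *Daglb* at 0.625 (0.226 to 0.291) in OPCs. The cause was not tested.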

How the results depend on the processing

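Of 23 called differences of the 7 genes, 15 passed in all 15 alternatives and 0 reversed, and 18 passed in all but the assignment of nuclei by their own markers. The 18 reversals were of values that did not pass. For dopamine against GABA neurons they were *Dagla* at -0.051 with no replicate block and -0.00048 by own markers, *Daglb* at -0.075 with only the classes compared, -0.036 with at least 2000 UMIs, -0.0037 with doublets kept and -0.019 by own markers, and *Faah* at 0.062 by own markers. By own markers *Napepld* was -0.31 against OPCs and -0.54 against microglia, and with at least 2000 UMIs *Daglb* was -0.036 against astrocytes. Leaving out each rat gave ranges across 0 for *Dagla* (-0.037 to 0.092), *Daglb* (-0.059 to 0.069) and *Mgll* (-0.31 to 0.0074) between dopamine and GABA neurons, *Abhd6* between dopamine and glutamate neurons (-0.21 to 0.016), and *Daglb* against astrocytes (-0.0071 to 0.196) and OPCs (-0.29 to 0.019). The number of members called was 0 by own markers for GABA against glutamate neurons and 2 with no replicate block for neurons against astrocytes, and 1 to 2 for dopamine against glutamate neurons when a rat was left out. Removing the block also lowered the genes called from 1968 to 850, from 1453 to 613, from 551 to 176 and from 5516 to 3616 (dopamine against GABA, dopamine against glutamate, GABA against glutamate, neurons against OPCs). By own markers the first 3 were 1156, 894 and 130. With free RNA subtracted the second and the third were 961 and 319, and the third was 928 with no filter on low counts and 358 without rat 5. *Napepld* passed against astrocytes with no filter (0.84) and without rat 5 (0.98), and *Abhd6* against microglia with doublets kept (0.40) and by own markers (0.31). By own markers *Mgll* against microglia was -0.62. The causes were not tested. Counts of 11 *Cnr1*, 5 *Napepld* and 0 *Faah* UMIs limit what microglia can show.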
